A study of Mus musculus with 18 samples.

Results

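Of the 36757 genes in the count table, 9 were followed because their products recruit, expand or mark neutrophils. They were chosen by symbol, for the known roles of their products, with earlier results of these data known. They comprised the CXCR2 ligands Cxcl1, Cxcl2, Cxcl3 and Cxcl5, their receptor Cxcr2, the granulocyte growth factor Csf3 with its receptor Csf3r, and the calprotectin subunits S100a8 and S100a9. All 9 had a row in the table.

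Neutrophils are released from the bone marrow under granulocyte colony-stimulating factor, the product of Csf3, and enter tissue along gradients of CXC chemokines that they sense through CXCR2. Epithelial cells, fibroblasts and macrophages make these chemokines when interleukin-1, tumor necrosis factor or interleukin-17 reaches them, in large part through NF-kB. Calprotectin is the heterodimer of S100A8 and S100A9; it fills the neutrophil cytosol, withholds zinc and manganese from microbes, and is measured in stool as a marker of intestinal inflammation. Squamous epithelia under stress also make it.

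RNA-seq libraries came from 3 models, each with 3 libraries of wild-type mice (RNF138 fl/fl, the floxed allele before recombination) and 3 of RNF138-/- mice. All mice were C57BL/6, kept free of specific pathogens, and 6 to 8 weeks old when the models were induced, so they were older when tissue was taken. Colonic tissue of the colitis model came from mice given repeated cycles of 2% dextran sodium sulfate (DSS), an agent that injures the colonic epithelium, for 7 days followed by 14 days of plain water, and killed 4 weeks after the last cycle. The colitis-associated cancer (CAC) model received a single injection of the carcinogen azoxymethane (AOM) at 10 mg/kg before the same DSS cycles. Organoids were grown in Matrigel from digested tumor-bearing fragments of the CAC model. Every group had therefore been exposed to DSS, and no unexposed colon was compared here. RNF138 is an E3 ubiquitin ligase; the cells in which it was deleted, and the exons removed, are not given in the sources used here. The labels do not say that each library came from a separate animal or culture, so the p-values measure the spread between these libraries, which may be technical.

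Libraries held between 11514716 and 24390082 reads assigned to genes, with a median of 17332367; CAC wild-type library 3 held the fewest. Rnf138 reads did not follow the genotype labels: mean CPM (read counts scaled to library size) were 19.6 ± 4.95 (SD, n = 3) in wild-type and 18.8 ± 0.760 in RNF138-/- colitis libraries, 25.4 ± 3.43 and 43.6 ± 3.41 in CAC, and 48.9 ± 9.79 and 46.9 ± 3.81 in organoids. Reads from exons outside a deletion would be counted too, so the gene total does not check the deletion, and the libraries are called labelled RNF138-/- throughout. The 3 wild-type organoid libraries held 0 CPM of Y-linked transcripts and 391 to 464 CPM of Xist, whereas the 3 labelled RNF138-/- held 242 to 281 CPM and at most 0.159 CPM, respectively. Genotype and sex cannot be told apart in the organoids. All 12 tissue libraries held 114 to 229 CPM of Y-linked transcripts.

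The 4 ligand genes lie in one cluster on chromosome 5 (GRCm38 coordinates of the GENCODE annotation). Cxcl5 (ENSMUSG00000029371) spans bases 90759360 to 90761624, Cxcl3 (ENSMUSG00000029379) 90786103 to 90789600, Cxcl1 (ENSMUSG00000029380) 90891241 to 90893115 and Cxcl2 (ENSMUSG00000058427) 90903871 to 90905938. S100a8 (chromosome 3, 90668978 to 90670035) and S100a9 (90692632 to 90695721) lie 22596 bases apart. Cxcr2 lies on chromosome 1 (74153989 to 74161246), Csf3r on chromosome 4 (126024550 to 126044440) and Csf3 on chromosome 11 (98701263 to 98703629). No annotated gene overlapped any of the 9. Cxcl2 and Cxcl3 are close copies: 5.84% of the 50-base windows of the Cxcl2 exons also occurred in Cxcl3, so some of their reads may have been assigned to the other gene or dropped as ambiguous. Such shared windows made up 10.7% of Csf3r and 6.68% of Cxcr2 exons and 0.693% or less of Cxcl5, Cxcl1, Csf3, S100a8 and S100a9.

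Upstream sequences of Cxcl1, Cxcl2 and Cxcl3 are shown because these neighbouring ligand genes were low in colitis and higher in CAC together. They run from 140 to 41 bases before the RefSeq start in GRCm38.p6, on the plus strand. Capitals mark letters that match GGGNNNTTCC, the core of an NF-kB motif, on either strand.
Cxcl1, chr5:90891105-90891204: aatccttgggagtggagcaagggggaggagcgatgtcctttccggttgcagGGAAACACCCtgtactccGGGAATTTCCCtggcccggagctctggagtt
Cxcl2, chr5:90903759-90903858: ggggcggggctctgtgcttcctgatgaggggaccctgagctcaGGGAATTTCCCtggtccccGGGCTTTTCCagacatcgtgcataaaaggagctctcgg
Cxcl3, chr5:90785961-90786060: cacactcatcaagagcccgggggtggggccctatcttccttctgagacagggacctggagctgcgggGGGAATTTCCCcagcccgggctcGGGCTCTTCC
The longest run shared by these 3 windows was GGGAATTTCCC, which contains a match on each strand. It was picked because all 3 hold it, so its presence in them is no test. It occurred in 14 of 32851 RefSeq promoters of 300 bases (0.0426%), these 3 included. The wider pattern GGGNNNTTCC occurred on either strand in 5.56% of those promoters. Promoters of 7 of the 9 genes were matched in the RefSeq table, not those of Csf3 and Cxcl5. Besides the 3 ligands, Csf3r had a GGGNNNTTCC match, while Cxcr2, S100a8 and S100a9 had none in this window. These are matches of letters only.

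In colitis tissue the neutrophil chemokines were near the limit of detection. Values are CPM scaled by TMM (trimmed mean of M-values) over the 18 libraries, each listed for libraries 1, 2 and 3. Cxcl1 was at 0.168, 0.955 and 0.557 CPM in wild-type and 1.86, 0.540 and 0.361 CPM in RNF138-/- labelled colitis libraries. Cxcl2 had 5 or fewer reads in each of the 6 colitis libraries, and Cxcl3 had 1 read in all 6 together. Cxcl5 was at 0.223, 0.0562 and 0.124 CPM in wild type, with 1.74, 0.240 and 0.310 CPM in RNF138-/- labelled libraries. Cxcl1 thus rested on 3 to 31 reads and Cxcl5 on 1 to 29 reads per colitis library. Fewer cells of a type and less RNA per cell cannot be told apart in bulk tissue.

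**Figure D1:**
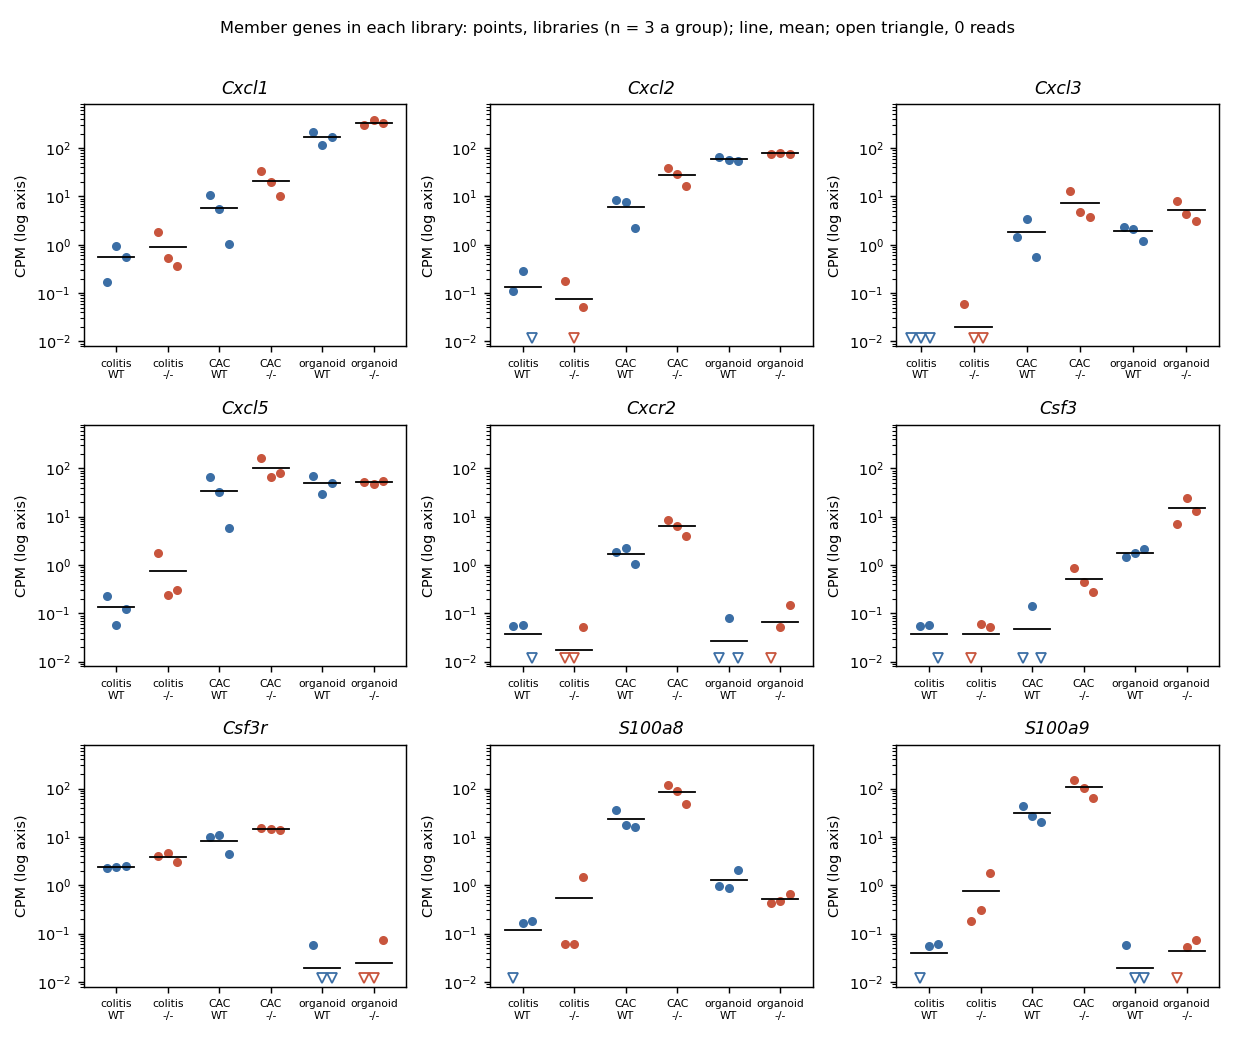
CPM of the 9 genes (log axis) in each of the 18 libraries by group; points are libraries (blue, wild type; red, labelled RNF138-/-), lines are group means, and open triangles at the bottom mark libraries with 0 reads. Every gene except Csf3 was higher in each CAC library than in any colitis library of the same genotype, as were 18.2% (wild type) and 31.7% (labelled RNF138-/-) of genes tested. In organoids Cxcl1, Cxcl2 and Csf3 were high and Cxcr2, Csf3r and S100a9 were at or near 0.

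CAC tissue carried all 4 ligands at higher levels than colitis tissue in both genotypes. Cxcl5, an epithelial chemokine also known as LIX, reached 65.5, 32.7 and 5.78 CPM in wild-type and 160.0, 65.4 and 79.5 CPM in RNF138-/- labelled CAC libraries. Cxcl1, the chemokine KC, was at 10.6, 5.55 and 1.04 CPM in wild type and at 33.5, 20.3 and 10.0 CPM in libraries labelled RNF138-/-. Cxcl2, the macrophage inflammatory protein MIP-2, was at 8.25, 7.62 and 2.18 CPM against 38.0, 29.7 and 16.8 CPM. In all 3 genes the wild-type library 3 was the lowest CAC library and RNF138-/- labelled library 1 the highest. Cxcl3, the closest relative of Cxcl2, was the lowest ligand at 1.48, 3.39 and 0.568 CPM in wild type and 13.1, 4.78 and 3.71 CPM in libraries labelled RNF138-/-. For all 4 ligands the lowest CAC library lay above the highest colitis library of the same genotype. So it did for 18.2% of genes tested in wild type and 31.7% in libraries labelled RNF138-/-.

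Between CAC and colitis, edgeR's quasi-likelihood test, fitted across the 18 libraries with Benjamini-Hochberg adjustment, called 8 of the 9 genes higher in wild type, where 9.78% of all genes tested were called higher. All 9 were called higher in RNF138-/- labelled libraries, where 17.5% of genes were. A gene was called at an adjusted p under 0.05 with a fold change of at least 2. In wild type, the log2 fold change was 3.37 for Cxcl1 (SE 0.76, adjusted p = 0.00555), 5.44 for Cxcl2 (SE 0.65, adjusted p = 4.51e-05) and 7.94 for Cxcl5 (SE 0.99, adjusted p = 6.84e-05). In RNF138-/- labelled libraries it was 4.55 for Cxcl1 (SE 0.71), 8.40 for Cxcl2 (SE 0.68) and 7.07 for Cxcl5 (SE 0.84), with adjusted p from 6.22e-07 to 9.03e-05. On the colitis side, Cxcl2 and Cxcl5 rested on 7 reads each in wild type, and Cxcl2 on 4 in libraries labelled RNF138-/-. Cxcl3 had 102 reads in wild-type CAC against 0 in wild-type colitis, at least 36.7-fold higher when the colitis group is set at 3 reads. In RNF138-/- labelled libraries Cxcl3 had 447 reads against 1, a ratio of 359.6 (exact 95% counting interval 64.2 to 14234.5).

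The receptors rose as well. Cxcr2, the chemokine receptor carried mainly by neutrophils, was at 1.85, 2.21 and 1.04 CPM in wild-type and 8.67, 6.44 and 3.98 CPM in RNF138-/- labelled CAC libraries. The colitis groups held 2 and 1 Cxcr2 reads, which gave CAC to colitis ratios of 47.5 (12.8 to 398) and 329.8 (58.9 to 13058.9). Csf3r was the only member with 40 or more reads in every colitis library. It was at 2.23, 2.36 and 2.48 CPM in wild-type and 3.95, 4.74 and 2.99 CPM in RNF138-/- labelled colitis, and at 9.91, 10.7 and 4.45 CPM and 15.2, 14.7 and 13.9 CPM in CAC. Its CAC libraries lay above those of colitis within each genotype, as for 18.2% (wild type) and 31.7% (labelled RNF138-/-) of genes tested. Its log2 fold changes were 1.83 in wild type (SE 0.37, adjusted p = 0.00273) and 1.91 in libraries labelled RNF138-/- (SE 0.36, adjusted p = 0.000433), the smallest among the genes called. Csf3 itself was almost absent: 2 reads in either colitis group, 3 in wild-type CAC and 33 in RNF138-/- labelled CAC. No fold is given for wild type, and in libraries labelled RNF138-/- the ratio was 13.3 (3.39 to 114).

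Calprotectin transcripts were nearly absent from colitis and abundant in CAC. S100a8 was at 36.2, 17.7 and 15.8 CPM in wild-type and 116, 90.9 and 47.7 CPM in RNF138-/- labelled CAC libraries, against at most 0.186 CPM and 1.496 CPM in the matching colitis groups. S100a9 was at 43.6, 27.4 and 20.5 CPM and at 154, 103 and 63.4 CPM in CAC, against at most 0.0619 and 1.75 CPM in colitis. For both genes every CAC library lay above every colitis library, with no overlap. Within genotype, 18.2% of genes tested in wild type and 31.7% in libraries labelled RNF138-/- were higher in CAC without overlap. The log2 fold change of S100a8 was 7.56 in wild type (SE 0.90, adjusted p = 4.46e-05) and 7.21 in libraries labelled RNF138-/- (SE 0.78, adjusted p = 4.84e-06). The wild-type value rested on 6 reads in colitis. S100a9 had 1507 reads in wild-type CAC against 2 in colitis, a ratio of 812.7 (225 to 6717), and a log2 fold change of 7.10 (SE 0.62, adjusted p = 1.15e-06) in libraries labelled RNF138-/-.

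**Figure D2:**
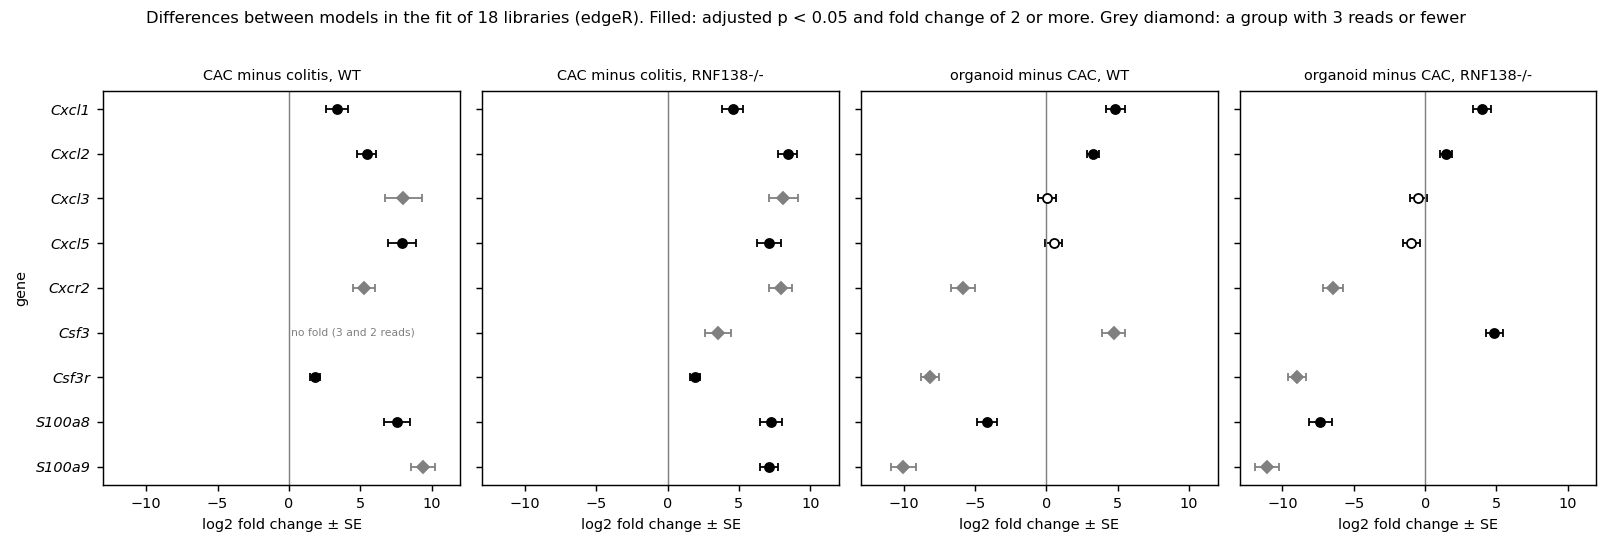
Log2 fold change of each gene between models within each genotype, CAC against colitis and organoids against CAC, with error bars of 1 SE; grey diamonds mark genes with 3 or fewer reads in a group, whose fitted value is no bound; filled symbols were called. Among genes with more than 3 reads in both groups, those called in CAC against colitis ranged from 1.83 (Csf3r, wild type) to 8.40 (Cxcl2, labelled RNF138-/-). That Cxcl2 value rested on 4 colitis reads.

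The rise from colitis to CAC was tested for a difference between genotypes. edgeR called 0 of the 9 genes, where 11.9% of genes tested were called in either direction, and 1 gene passed an unadjusted p of 0.05 with a fold change of at least 2. That gene was Cxcl2, whose difference between the genotypes was 2.97 on the log2 scale (SE 1.30, adjusted p = 0.138). DESeq2 called 1 of the 9, also Cxcl2, at 2.99 (adjusted p = 0.0325), against 15% of genes tested. The Cxcl2 value rested on 7 reads in wild-type and 4 in RNF138-/- labelled colitis libraries.

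Of other neutrophil genes, more were called higher than lower in CAC against colitis. Of 26 tested genes from a list of 30 neutrophil genes, 15 were higher and 0 lower in wild type, against 9.78% and 3.81% of all genes tested. The median log2 fold change was 2.19, against 0.04 over all genes. In libraries labelled RNF138-/-, 18 were higher and 1 lower, against 17.5% and 19.6% of all genes tested, and the median was 3.44 against 0.04. Among those with the largest fitted changes, Retnlg had 308 reads in wild-type CAC against 5 in colitis (log2 fold change 6.02) and Stfa2l1, a stefin, had 26 against 0. Padi4, whose enzyme citrullinates histones in neutrophil extracellular traps, was at 18.2 CPM in wild-type CAC against 0.226 CPM in colitis, but organoids held it at 62.2 and 38.9 CPM. Mmp8, neutrophil collagenase, had 121 reads against 2.

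Among upstream cytokine genes more were higher than lower. Of 14 genes tested from a list of cytokines and receptors that induce neutrophil chemokines, 5 were higher in wild-type CAC than colitis, where 9.78% of genes tested were. The largest changes were 4.34 for Il1a, 2.64 for Il23a, 2.22 for Tnf and 2.03 for Il1b, and the fifth was Il1rn at 1.73, which encodes the antagonist of the interleukin-1 receptor. In libraries labelled RNF138-/-, 6 were higher and 2 lower, led by Il1a at 5.70, Il23a at 4.60, Il1b at 3.35 and Osm, a myeloid cytokine that acts on stromal cells, at 2.80, and Il1rn was among them at 2.09. In that comparison 17.5% of genes tested were higher and 19.6% lower. Squamous epithelium markers moved too: 5 of 7 tested were higher in wild type, among them Krt6a with 142 reads in CAC against 0 in colitis, Krt4 with 253 against 3, Krt13 at 5.13 and Krt14 at 3.27, and their summed level rose from 8.55 to 9.85 CPM in wild-type colitis to 47.9 to 56.9 CPM in CAC. In libraries labelled RNF138-/-, 4 of the 7 were higher and 2 lower, at sums of 8.93 to 27.3 CPM in colitis and 29.9 to 116 CPM in CAC. In libraries labelled RNF138-/- other lists also differed between CAC and colitis: 6 of 8 lymphocyte markers (median -3.40), 4 of 10 epithelial markers (median -0.65), 2 of 3 eosinophil markers and 4 of 8 other chemokine receptors were lower, where 19.6% of genes tested were. Lymphocyte markers there summed to 1506 to 2654 CPM in colitis and 125 to 218 CPM in CAC. In wild type none of the epithelial or eosinophil markers was called, and 1 of 8 lymphocyte markers and 1 of 8 other chemokine receptors were higher. The part of these cell types in the S100a8, S100a9 and other member levels was not tested. Model and any difference in how the 2 sets of libraries were made cannot be told apart.

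Compared per exon length, S100a9, S100a8 and Cxcl5 led the 9 genes in CAC, in that order in both genotypes. Mean TPM, read shares corrected for exon length and without TMM scaling, were 174 for S100a9, 99.6 for S100a8, 57.4 for Cxcl5, 9.41 for Cxcl1 and 8.91 for Cxcl2 in wild-type CAC. They were 788, 473, 208, 43.7 and 52.5 TPM in libraries labelled RNF138-/-. The ratio of S100a8 to S100a9, the partners of one heterodimer, was narrow: 0.487 to 0.624 in wild type and 0.565 to 0.663 in libraries labelled RNF138-/- on the TPM scale.

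Within CAC, the libraries labelled RNF138-/- held more of every member than the wild type on average, but edgeR's test within the CAC libraries called 0 of the 8 genes tested. Of all 17752 genes tested there, 0.546% were called higher and 4.83% lower. Of the 8 genes, 5 passed an unadjusted p of 0.05 with a fold change of at least 2, where 4.29% of genes tested did so upwards. DESeq2 called those members as higher: Cxcl2, Cxcl3, Cxcr2, S100a8 and S100a9, against 3.14% of genes tested. A fit of all 18 libraries, which shares one estimate of the spread, called 7 of 9 where 3.76% of genes tested were called higher. Of the 8 tested genes 6 were higher without overlap of the groups, as were 24.5% of genes tested, and Csf3, which was not tested, did not overlap either. The exact permutation test of 3 against 3 cannot go below p = 0.1. The 2 overlapping genes were Cxcl1 and Cxcl5, in each of which the lowest library labelled RNF138-/- lay just under the highest wild-type library.

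Among the ligands, group means in CAC were 34.7 ± 29.9 CPM (SD, n = 3) in wild-type and 102 ± 51.0 CPM in RNF138-/- labelled libraries for Cxcl5, with a log2 fold change of 1.51 (SE 0.78, interval -0.02 to 3.03, adjusted p = 0.215). Cxcl1 went from 5.73 ± 4.77 to 21.3 ± 11.8 CPM (1.84, SE 0.77, interval 0.33 to 3.34, unadjusted p = 0.0502, adjusted p = 0.148). These normal intervals are narrower than edgeR's test implies, so one that excludes 0 is no call. Cxcl2, the ligand with the smallest SE on the log2 scale, was at 6.01 ± 3.34 against 28.1 ± 10.7 CPM (2.16, SE 0.52, interval 1.14 to 3.19, adjusted p = 0.0566). Cxcl3 was at 1.81 ± 1.44 against 7.21 ± 5.16 CPM (1.90, SE 0.73, interval 0.47 to 3.33, adjusted p = 0.126). Every ligand thus had the higher mean in libraries labelled RNF138-/-, and in wild type the SD of Cxcl5 and Cxcl1 was nearly as large as the mean.

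Cxcr2 was at 1.70 ± 0.598 CPM in wild-type CAC against 6.36 ± 2.34 CPM in libraries labelled RNF138-/- (1.83, SE 0.41, interval 1.03 to 2.63, adjusted p = 0.0505). Csf3r went from 8.36 ± 3.41 to 14.6 ± 0.615 CPM (0.75, SE 0.32, interval 0.11 to 1.38, unadjusted p = 0.0557, adjusted p = 0.157), with 3 closely spaced libraries labelled RNF138-/-. Csf3 fell below the filter on low counts. It had 0, 3 and 0 reads in wild-type and 16, 11 and 6 reads in RNF138-/- labelled libraries, a ratio of 8.06 (2.53 to 41.1) after scaling. S100a8 was at 23.2 ± 11.3 against 85.04 ± 34.8 CPM (1.82, SE 0.44, interval 0.97 to 2.68, adjusted p = 0.0550), and S100a9 at 30.5 ± 11.9 against 107 ± 45.3 CPM (1.76, SE 0.40, interval 0.98 to 2.54, adjusted p = 0.0508). The adjusted p of Cxcl2, Cxcr2, S100a8 and S100a9 lay just above the threshold. The median log2 fold change of the 8 tested members was 1.83, against 0.01 over all genes.

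**Figure D3:**
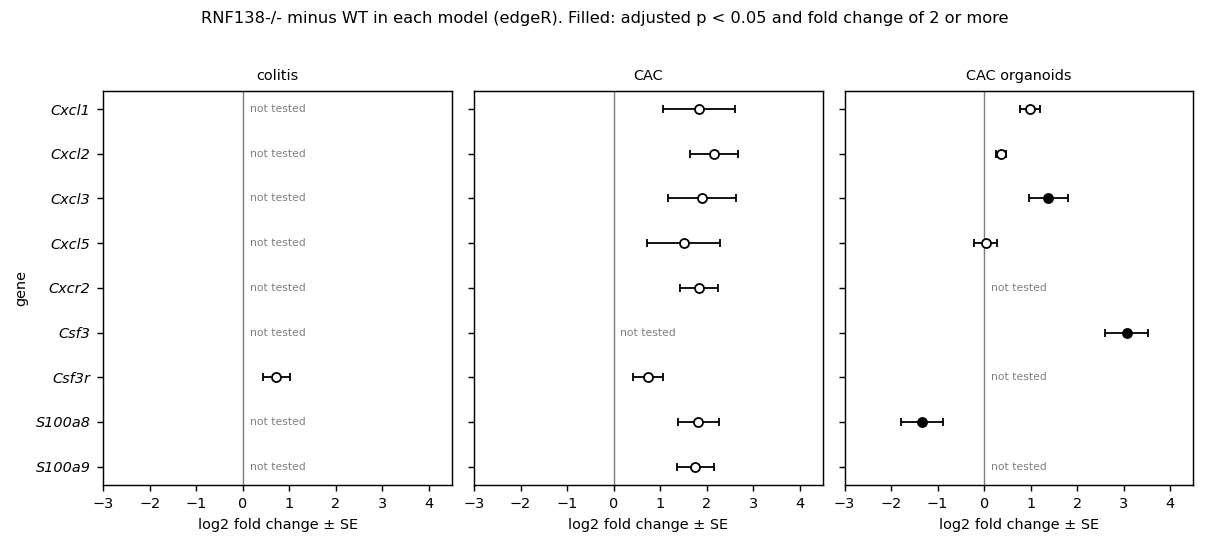
Log2 fold change of RNF138-/- labelled over wild-type libraries for each gene tested within colitis, CAC and organoids, with error bars of 1 SE; filled points were called, and genes below the filter on low counts are marked as not tested. The 8 genes tested in CAC lay between 0.75 and 2.16 and none was called, while in organoids Csf3 stood at 3.07, Cxcl3 at 1.38 and S100a8 at -1.34.

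Wild-type library 3 was the lowest of the 6 CAC libraries for 8 of the 9 genes and tied with wild-type library 1 at 0 reads for Csf3. RNF138-/- labelled library 1 was the highest for all 9. The highest to lowest library ratio ran from 3.41 for Csf3r to 32.2 for Cxcl1. Without wild-type library 3, edgeR called 1 gene, Cxcl2, at 1.80 (adjusted p = 0.0385), where 0.911% of genes tested were called higher. The log2 fold changes of the other ligands then fell to 1.38 for Cxcl1, 1.52 for Cxcl3 and 1.02 for Cxcl5, and that of Csf3r to 0.47. Values of 1.61 for Cxcr2, 1.64 for S100a8 and 1.56 for S100a9 moved less. Other libraries moved the ligands too. Without wild-type library 1, Cxcl1 rose to 2.59 and Cxcl5 to 2.33, and without wild-type library 2, Cxcl3 rose to 2.73. Without library 1 labelled RNF138-/-, Cxcl3 was at 1.13, Cxcl5 at 1.01 and Cxcl1 at 1.35. None of the 8 genes was called in these cases.

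The median log2 fold change of 24 other neutrophil genes tested in this comparison was 1.00, against 0.01 over all genes. In RNF138-/- labelled CAC, where 0.546% of genes tested were called higher and 4.83% lower, 0 of them fell and 5 rose. They were Trem1, an amplifying receptor of myeloid cells, at 2.17 (adjusted p = 0.0381), Chil3 at 2.14 (adjusted p = 0.0245), Hdc, the histamine-forming enzyme, at 1.99 (adjusted p = 0.0426), and the C-type lectin receptors Clec4e at 1.95 (adjusted p = 0.0313) and Clec4d at 1.71 (adjusted p = 0.0358). Chil3, Clec4e and Clec4d are also made by macrophages. The summed level of the neutrophil list was 1304 to 1974 CPM in wild-type and 1058 to 1996 CPM in RNF138-/- labelled libraries, so it overlapped; Slfn4, Pglyrp1 and Cd177 held most of it, and Slfn4 was at a mean of 808 and 204 CPM. In the list of cytokine inducers, 1 of 14 rose, Il1b at 2.05 (adjusted p = 0.0343), and 2 fell, the interleukin-17 receptor subunits Il17rc at -1.83 (adjusted p = 0.0293) and Il17re at -1.04 (adjusted p = 0.0478). The median of that list was 0.74. None of these calls was made without library 1 or without library 2 labelled RNF138-/-, or with the Y-linked covariate, where edgeR called 0 of all genes.

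The related chemokine and S100 genes gave few calls in the same comparison, in which 4.83% of genes tested were called lower. None of 9 other CXC chemokines was called, nor any of 6 calprotectin receptors. Among 8 other chemokine receptors, Cxcr5 (-3.67) and Ackr4 (-2.84) fell, and among 10 other S100 genes S100a13 (-1.54) fell. Of 8 lymphocyte markers 5 fell, with a median of -3.36 and sums of 1487 to 2225 CPM in wild-type and 125 to 218 CPM in RNF138-/- labelled libraries. Cxcr5 marks B cells and follicular T cells. None of 13 monocyte and macrophage, 10 epithelial, 8 fibroblast, 5 endothelial or 6 squamous markers was called. Their summed levels were 407 to 936 against 764 to 966 CPM for macrophage, 10957 to 21762 against 8051 to 10050 CPM for epithelial, and 47.9 to 56.9 against 29.9 to 116 CPM for squamous markers. Of 2 eosinophil markers tested 1 fell, Prg2 at -3.32 (adjusted p = 0.0426). Eosinophil markers summed to 5.23 to 10.6 CPM in wild-type and 0.891 to 1.28 CPM in libraries labelled RNF138-/-. None of the calls in these lists was made without library 1 or without library 2 labelled RNF138-/-. The CAC groups also stood apart as libraries, without overlap: mitochondrial genes took 3.23% to 6.00% of reads in wild-type and 2.57% to 3.11% in RNF138-/- labelled libraries, and the 10 most abundant genes 6.72% to 11.1% and 4.41% to 4.94%. The part of these cell types and library properties in the member values was not tested.

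**Figure D4:**
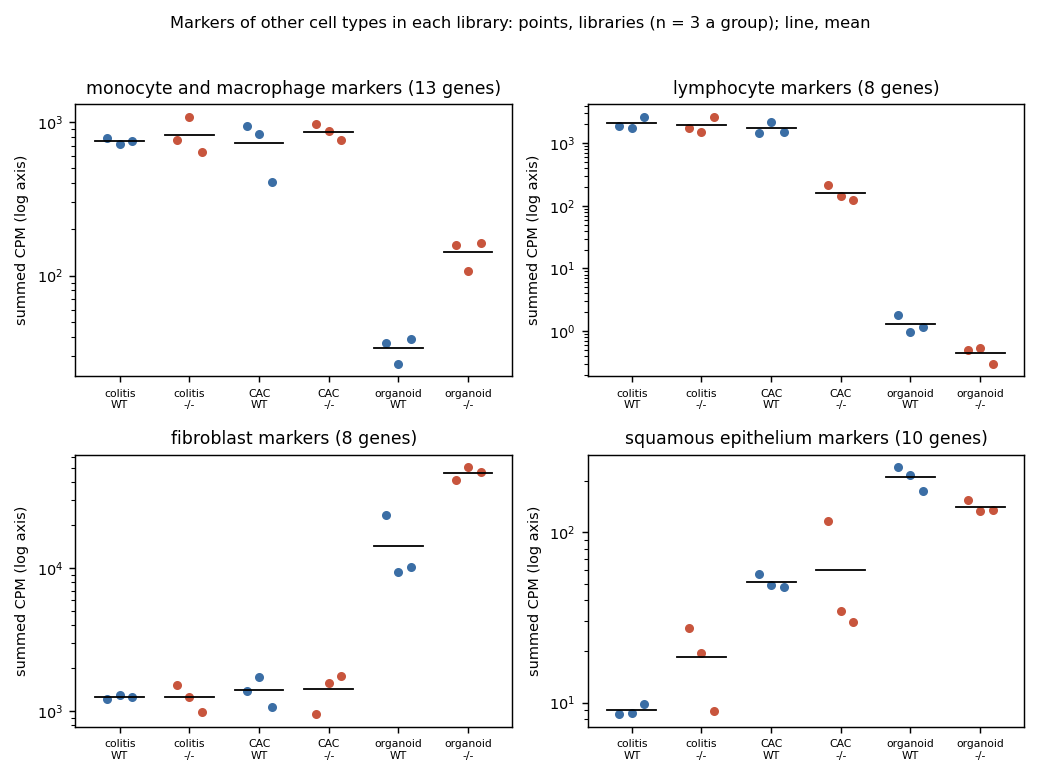
Summed CPM (log axis) of monocyte and macrophage, lymphocyte, fibroblast and squamous epithelium markers in each library, by group; points are libraries and lines are group means. Lymphocyte markers in CAC lay at 1487 to 2225 CPM in wild-type and at 125 to 218 CPM in RNF138-/- labelled libraries, and fibroblast markers were highest in organoids labelled RNF138-/- (41481 to 51056 CPM).

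In colitis, 1 member passed the filter on low counts for the test between genotypes. Csf3r had a log2 fold change of 0.72 (SE 0.29, interval 0.15 to 1.28, unadjusted p = 0.0372, adjusted p = 0.443), and its 3 RNF138-/- labelled libraries all lay above the wild-type libraries. edgeR called 0 members, 0 passed an unadjusted p of 0.05 with a fold change of at least 2, and DESeq2 called 0, each of that 1 gene, where 0.0902% of genes tested were called by edgeR in either direction. Among genes tested, 8.87% were higher without overlap as Csf3r was. Cxcl5 and S100a9, below the filter, did not overlap either. With no filter all 9 were fitted: 0 were called, and Cxcl5, S100a8 and S100a9 passed an unadjusted p of 0.05 with a fold change of at least 2, on 31 to 42 reads in libraries labelled RNF138-/- and 2 to 7 in wild type. Cxcl5 rested on 1 library: library 1 labelled RNF138-/- held 29 of 39 reads. S100a9 had 3, 5 and 34 reads in libraries labelled RNF138-/- and 0, 1 and 1 in wild type, a ratio of 20.6 (5.37 to 176). Library 3 labelled RNF138-/- held 34 of the 42 S100a9 and 29 of the 31 S100a8 reads. None of the 15 neutrophil genes or 10 cytokine inducers tested in colitis was called, with medians of 0.48 and -0.13.

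CAC organoids held high levels of Cxcl1 and Cxcl2 with almost no reads of the receptors or S100a9. Cxcl1 reached 213, 117 and 169 CPM in wild-type organoids and 294, 388 and 331 CPM in those labelled RNF138-/-. Cxcl2 was at 66.3, 57.5 and 54.0 CPM and at 76.0, 80.6 and 76.8 CPM. Every organoid library exceeded every CAC tissue library for both genes, as it did within genotype for 29.9% (wild type) and 32.2% (labelled RNF138-/-) of genes tested, and the 2 organoid groups did not overlap. In contrast Cxcr2 had 1 and 3 reads per group, Csf3r 1 and 1, and S100a9 1 and 2. S100a8 remained measurable at 0.980, 0.878 and 2.02 CPM in wild-type and 0.421, 0.476 and 0.672 CPM in RNF138-/- labelled organoids. The neutrophil genes Retnlg and Stfa2l1 had 0 reads in all 6 organoid libraries, while the sum of the neutrophil list there came mostly from Pglyrp1, a peptidoglycan recognition protein (2164 and 509 CPM).

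Against wild-type CAC tissue, wild-type organoids had log2 fold changes of 4.83 for Cxcl1 (SE 0.66) and 3.27 for Cxcl2 (SE 0.43), and Csf3 had 78 against 3 reads, a ratio of 28.0 (9.22 to 139). Those 3 genes were called higher, where 17.5% of genes tested were. S100a8, Cxcr2, Csf3r and S100a9 were called lower, where 26.8% of genes tested were. S100a8 stood at -4.16 (SE 0.68), while by reads Cxcr2 was 81.8-fold lower (14.3 to 3267), Csf3r 405.3-fold lower (72.4 to 16046) and S100a9 1401-fold lower (251 to 55371). Cxcl3 (0.03, SE 0.63) and Cxcl5 (0.51, SE 0.61) were not called. The same genes were called in each direction between organoids and tissue labelled RNF138-/- (17.9% of genes higher, 26.5% lower). Cxcl1 was then at 3.99 (SE 0.62), Cxcl2 at 1.47 (SE 0.40), Csf3 at 4.86 (SE 0.60) and S100a8 at -7.34 (SE 0.79). By reads, Cxcr2 was 96.9-fold lower (32.9 to 472), Csf3r 679-fold lower (122 to 26841) and S100a9 2426-fold lower (671 to 20036). Cxcl3 was at -0.49 (SE 0.59) and Cxcl5 at -0.97 (SE 0.61). Markers of other cells moved in the same comparisons. Fibroblast markers were higher in organoids, 7 of 8 in wild type (median 2.93) and 8 of 8 in libraries labelled RNF138-/- (median 4.82), with summed levels of 1083 to 1736 and 958 to 1765 CPM in tissue against 9378 to 23784 and 41481 to 51056 CPM in organoids. Macrophage markers were lower for 12 of 13 and lymphocyte markers for 8 of 8 in both genotypes. The part of these cells in the organoid values was not tested. The median over all genes was -0.14 in wild type and -0.22 in libraries labelled RNF138-/- in these comparisons. Without TMM scaling the median in the latter fell to -0.84, and there Cxcl2 was not called (0.85, adjusted p = 0.0812) while Cxcl5 was called lower (-1.57, adjusted p = 0.0317).

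The mix of ligands also differed between tissue and culture. Per exon length, Cxcl5 made up 70.4% ± 7.09 (SD, n = 3) of the summed TPM of the 4 ligands in wild-type CAC tissue and 66.6% ± 8.98 in tissue labelled RNF138-/-. In organoids its share was 17.95% ± 2.65 and 11.4% ± 1.67. Cxcl1 took 11.9% ± 0.548 and 13.7% ± 4.15 in tissue and 61.1% ± 2.34 and 72.7% ± 2.92 in organoids. Shares of Cxcl2 were close to each other, at 15.0% ± 6.41, 17.3% ± 5.15, 20.6% ± 4.78 and 15.3% ± 1.06 in the same order. The ratio of Cxcl5 to Cxcl1 reads was 3.22 to 7.95 over the 6 CAC tissue libraries and 0.125 to 0.319 over the 6 organoid libraries, with no overlap. The summed TPM was 77.3 ± 63.5 and 313 ± 134 in tissue against 413 ± 99.2 and 675 ± 60.2 in organoids.

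**Figure D5:**
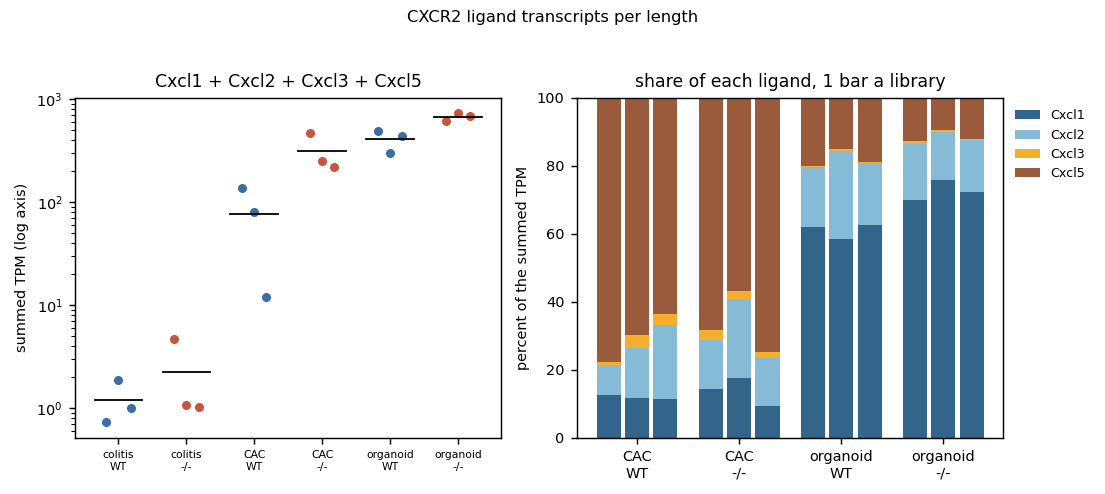
Left, summed TPM of Cxcl1, Cxcl2, Cxcl3 and Cxcl5 (log axis) in each library of the 6 groups, with lines at the group means; right, the share of each ligand in percent, 1 bar a library, for CAC tissue and organoids. Cxcl5 held the largest share in tissue (group means of 70.4% and 66.6%) and Cxcl1 in organoids (61.1% and 72.7%).

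Between organoid genotypes, 6 of the 9 genes were tested, 2 were called higher (7.94% of genes tested were) and 1 lower (7.04%). Csf3 had the largest change: 1.44, 1.76 and 2.09 CPM in wild type and 7.09, 24.9 and 13.3 CPM in RNF138-/- labelled organoids, a log2 fold change of 3.07 (SE 0.46, adjusted p = 0.00333). Cxcl3 was at 2.36, 2.15 and 1.21 CPM against 8.00, 4.29 and 3.06 CPM (1.38, SE 0.42, adjusted p = 0.0359), so its groups did not overlap. Cxcl1 rose by 0.99 (SE 0.21, adjusted p = 0.00997), just under the 2-fold threshold, and was called in 8 of 15 alternatives, at up to 1.22. Cxcl2 was at 0.35 (SE 0.11, adjusted p = 0.0341), under the 2-fold threshold and not called. Cxcl5 was at 67.9, 29.7 and 50.8 CPM against 52.9, 48.4 and 54.7 CPM, and its difference of 0.03 (SE 0.25, interval -0.46 to 0.52, adjusted p = 0.927) was within the spread of the libraries; it turned to -0.16 without TMM scaling. S100a8 fell by 1.34 on the log2 scale (SE 0.45, adjusted p = 0.0497), on 58 and 24 reads per group. Csf3, Cxcl1, Cxcl2 and Cxcl3 were higher without overlap (27.6% of genes tested) and S100a8 lower (25.7%).

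The organoid calls differed in how many libraries they needed. Csf3 was called without any 1 library, at 2.50 to 3.41 (adjusted p = 0.00350 to 0.0160). Cxcl3 lost its call without wild-type library 2 or 3, or without library 1 or 2 labelled RNF138-/-, at 0.92 to 1.64 over the libraries left out in turn. S100a8 kept its call only without wild-type library 1 among these, at -1.54 to -0.88. DESeq2 called Csf3, Cxcl3 and Cxcl1 higher (8.43% of genes tested) and did not call S100a8 (adjusted p = 0.0720).

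Markers of other cells moved beside these genes in the organoids, where 7.94% of genes tested were called higher and 7.04% lower. Of 8 fibroblast markers 7 rose, with a median of 1.47 and sums of 9378 to 23784 CPM in wild-type and 41481 to 51056 CPM in RNF138-/- labelled organoids. Of 8 monocyte and macrophage markers tested 5 rose, with a median of 2.73 and sums of 26.7 to 38.7 against 107 to 163 CPM. Ptprc, the leukocyte antigen CD45, had 6 and 36 reads per group. Of 14 cytokine inducers 5 rose, among them the interleukin-1 receptor Il1r1 at 1.91, Il1a at 1.75 and Nfkbiz, an NF-kB cofactor, at 1.54. Osm went from 2 to 97 reads and Il1b from 7 to 87. In the neutrophil list 6 of 17 rose and 3 fell. Clec4d went from 0 to 94 and Chil3 from 3 to 375 reads per group, with log2 fold changes of 5.06 for the integrin gene Itgam and 4.68 for Mmp8. Those that fell were Cd177 (-2.91), Hdc (-2.36) and Pglyrp1 (-2.13), and the summed level of the list was 2094 to 3502 CPM in wild-type and 697 to 874 CPM in RNF138-/- labelled organoids. Squamous markers, from a cell type that can make calprotectin, summed to 176 to 242 CPM in wild-type and 133 to 155 CPM in RNF138-/- labelled organoids, and 1 of 6 tested fell, Krt10 at -1.02. Epithelial markers summed to 10919 to 12144 against 6435 to 9485 CPM, and 1 of 10 fell, Krt18 at -1.14. The organoid groups also stood apart as libraries, without overlap. Mitochondrial genes took 1.06% to 1.34% of reads in wild-type and 0.695% to 0.830% in RNF138-/- labelled organoids, and the 10 most abundant genes 4.22% to 5.42% and 7.26% to 8.18%. The part of these cells, of library properties and of sex in the Csf3, Cxcl3, Cxcl1 and S100a8 values was not tested.

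Taking each gene over the 6 groups, the receptors and calprotectin were highest in RNF138-/- labelled CAC tissue, followed without overlap by wild-type CAC tissue. Cxcl1, Cxcl2 and Csf3 were instead highest in RNF138-/- labelled organoids and next in wild-type organoids, again without overlap. Such separation of the genotypes was common, with 24.5% of genes tested in CAC and 27.6% in organoids higher without overlap in libraries labelled RNF138-/-. Cxcl5 had its highest mean in RNF138-/- labelled CAC tissue. Organoids labelled RNF138-/- lay below that range, while wild-type organoids and wild-type CAC reached into it. For Cxcl3 the RNF138-/- labelled CAC and organoid groups had the highest means and overlapped, and wild-type CAC overlapped wild-type organoids and reached into the range of organoids labelled RNF138-/-. The colitis groups had the lowest means for all 4 ligands, although Cxcl1 in colitis library 1 labelled RNF138-/- exceeded wild-type CAC library 3.

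The genotype difference itself differed between organoids and CAC tissue for 2 of the 9 genes in edgeR's 18-library fit, where 7.54% of genes tested were called in that direction. The organoid minus tissue difference was -1.80 on the log2 scale for Cxcl2 (SE 0.57, adjusted p = 0.0309) and -3.18 for S100a8 (SE 0.98, adjusted p = 0.0290). Without some single libraries either call was lost, so that 0 to 2 genes were called.

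Across the 12 tissue libraries, S100a8 and S100a9 ran together at a Pearson r of 0.998 on log2(CPM + 1). These libraries fall into colitis and CAC clusters, and the correlations are given as a description. Among 15994 genes, the 3 most like Cxcr2 were Clec4e (r = 0.996), Cbx3-ps8 (0.992) and Gm5896 (0.991). Gm5896 was also the closest to Cxcl2 (0.995). The closest to Cxcl1 were Aaas (0.987), Btbd19 (0.982) and Ier3 (0.981), to Cxcl5 Tdg-ps (0.991), Slc7a8 (0.990) and Thpo (0.989), to Cxcl3 Nploc4 (0.985), to Csf3r Tnfrsf11b (0.992), and to both S100a8 and S100a9 Gm6430 (0.992 and 0.994). Cbx3-ps8 and Tdg-ps are pseudogenes, and reads on pseudogenes made up 0.304% to 0.423% of colitis, 0.658% to 0.754% of wild-type CAC and 0.779% to 0.807% of RNF138-/- labelled CAC libraries. The part of that share in the likeness was not tested.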

How the data were processed

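Libraries were made with the TruSeq RNA kit from total RNA. The deposited table holds read counts per gene, which the authors made with STAR 2.6.1d and HTSeq 0.11.2 on mm10 (named in the submitters' processing notes); the methods of the study also name Cufflinks and GENCODE M8, and strand use in counting is not given in the sources used here. Here, counts were tested with edgeR 4.0.16 in R 4.3.3: low counts were filtered (filterByExpr), libraries TMM-scaled, and the quasi-likelihood test run on the whole table within each model (genotype) or across 18 libraries (models and differences of differences), with Benjamini-Hochberg adjustment over all genes tested. Genes were called at a Benjamini-Hochberg p under 0.05 when they also changed 2-fold or more. Intervals around log2 fold changes are 95% normal intervals. They do not allow for the few libraries per group and are narrower than edgeR's test implies. Where a group held 3 or fewer reads, ratios of scaled reads with exact 95% counting intervals replaced the fit; a group at 0 was set at 3 reads over the group. Such intervals cover counting error only. TPM used exon lengths of GENCODE M21, which 36700 of 36757 gene identifiers matched (99.8%). The script was tested on simulated data.

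The 9 genes and all gene lists were chosen with earlier results of these data known. In each list the text names up to 4 called genes with the largest changes; Clec4d in CAC, Nfkbiz, Ptprc, Pglyrp1, Slfn4, Cd177, Il1rn and, in organoids, Hdc were named after their values were seen. Lists covered neutrophil genes, cytokine inducers, other CXC chemokines, other chemokine receptors, other S100 genes, calprotectin receptors and markers of other cell types. Alternatives covered DESeq2 1.42.0, RLE or no scaling, no filter, a replicate block, thinning, an 18-library fit, a Y-linked covariate, no fold threshold and each library left out. Replicates were not duplicates: their chi-square per degree of freedom was 8.05 to 161. Total counts per library were 11514716 to 24390082, and the spread between replicates was above counting error.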

Additional observations from a re-analysis of the deposited data

Results flagged for a closer look

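The genotype difference was not the same in organoids as in CAC tissue for 2 of the 9 genes, by the test of that difference in edgeR's 18-library fit. For Cxcl2, which was higher in libraries labelled RNF138-/- in both settings by its means, the difference was smaller in organoids by a log2 value of -1.80 (SE 0.57, adjusted p = 0.0309). For S100a8 it was -3.18 (SE 0.98, adjusted p = 0.0290), with higher values in RNF138-/- labelled CAC tissue and lower values in RNF138-/- labelled organoids, where it had 58 and 24 reads per group. In the organoids genotype cannot be told apart from sex. Over 18 alternatives the Cxcl2 value ranged from -2.21 to -1.43 (adjusted p = 0.00809 to 0.0817) and the S100a8 value from -3.63 to -2.69 (adjusted p = 0.00351 to 0.101), and each lost its call in 8 of them, all of which left out 1 library.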

How the results depend on the processing

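The counts of members called between models (8 and 9 for CAC against colitis, 7 and 7 for organoids against CAC, wild type and labelled RNF138-/-) were the same in all 12 alternatives each. The genes behind them changed in 1 case: without TMM scaling, organoids against CAC labelled RNF138-/- had 2 higher and 5 lower in place of 3 and 4. For CAC genotypes edgeR called 0 members, and also 0 with RLE scaling, no scaling, the Y-linked covariate and no fold threshold. It called 4 with no filter, 5 with a replicate block, 1 on thinned counts and 7 in the fit of all 18 libraries, and DESeq2 called 5. With 1 library left out the count ran from 0 to 1. The labels do not say that a replicate number marks a shared animal or batch: same-numbered libraries correlated at 0.0865 to 0.467 in colitis, at 0.0397 to 0.204 in CAC and at -0.193 to 0.0623 in organoids, and not every library correlated best with its own number. The replicate block called 0 in colitis and 3 in organoids.

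Between organoid genotypes the count was 3, of which 2 were higher and 1, S100a8, lower. It was also 3 by DESeq2, RLE scaling, no filter and the replicate block, but 3 higher and 0 lower, so S100a8 lost its call there. It was 2 on thinned counts, 1 in the 18-library fit, 0 with the Y-linked covariate and 5 with no fold threshold, and with 1 library left out it ran from 1 to 4, at 1 without wild-type library 2 or 3 or without library 2 labelled RNF138-/-. The Y-linked covariate nearly coincides with genotype there and turned Cxcl1 to -4.98, Cxcl2 to -1.60, Cxcl3 to -27.26, Csf3 to -22.73 and S100a8 to 19.30. Cxcl5 in organoids turned to -0.16 without TMM scaling and ran from -0.22 to 0.35 with 1 library left out. Against wild-type CAC, Cxcl3 in organoids turned to -0.20 without scaling and to -0.00377 with no filter, and ran from -0.36 to 0.84 with 1 library left out, against CAC labelled RNF138-/- from -0.96 to 0.26.

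The CAC against colitis difference between genotypes had 0 members called, and 1 by DESeq2. The organoid against CAC one had 2, and 0 to 2 with 1 library left out. It was 1 without CAC wild-type library 2 or 3 or organoid wild-type library 1 or 2. It was 0 without CAC library 1 or 2 labelled RNF138-/-, organoid wild-type library 3 or any organoid library labelled RNF138-/-. The cause of these changes was not tested.

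Over all genes, edgeR called 15 (colitis), 954 (CAC) and 2292 (organoids) between genotypes, DESeq2 343, 2463 and 2322. Over all alternatives these counts ran from 0 to 354, 0 to 2834 and 0 to 5436. In CAC edgeR called 2834 in the 18-library fit and 0 without library 1 or without library 2 labelled RNF138-/-. For wild-type CAC against colitis it called 2636, and 1726 without colitis wild-type library 1, and for the difference of that contrast between genotypes 2315, and 1399 without CAC wild-type library 3. Without TMM scaling the split of higher against lower calls between organoid genotypes was 936 to 1654 in place of 1215 to 1077, and the median log2 fold change of all genes was -0.24 in place of -0.04; in CAC that median was 0.27 in place of 0.01. For CAC against colitis in libraries labelled RNF138-/- the split was 4789 to 2932 in place of 3392 to 3804, and for organoids against CAC 2177 to 8153 in place of 3466 to 5138. In colitis 8 of the 9 genes fell below the filter on low counts, so the main test covered 1 there. With no filter the fitted values were 4.02 for S100a9 (adjusted p = 0.0527), 2.40 for Cxcl5 (adjusted p = 0.261) and 2.14 for S100a8 (adjusted p = 0.617), and the 18-library fit also held all 9, with 0 called in both. These fits rest on few reads and are no bounds.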
